A study of Mus musculus with 4 samples.

Results

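Carbonic anhydrase 1 (Car1) marked a set of erythroid progenitors in single-cell libraries that had been sorted for bone marrow stroma. A barcode was a member if at least 5 of every 10000 of its unique molecular identifiers (UMIs, each standing for 1 captured transcript) came from Car1, with at least 3 Car1 UMIs, and if the granule genes S100a8, S100a9, Ngp and Camp summed to less than 30 per 10000. UMIs per 10000 UMIs of a barcode are written u. The rule was applied to barcodes with at least 2000 UMIs, at least 500 genes and no more than 10% of UMIs from mitochondrial genes, called eligible here. It found 432 members among 21483 eligible barcodes, and 426 of the 432 lay in 1 library. The members were chosen by their own Car1 and granule gene counts, so the values of Car1 and of every gene in these cells describe them and are given with no test.

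Mesenchymal stromal cells of C57BL/6 mice were profiled in 4 libraries, each the only one of its group, so no difference between groups has a replicate check. NHD13Tg came from mice with a Nup98-HoxD13 transgene, a model of myelodysplastic syndrome, and was set against the wild-type library WT_A1. Abcg2-MDS/AML came from the Abcg2 model, labelled MDS/AML, and was set against the wild-type library Control. In all 4, femora and tibiae were crushed and digested, and cells negative for CD45, TER119 and CD31 and positive for CD140a and CD51 were sorted, per the labels' protocols. The sources used here give no ages, no number of animals per library, no promoter of the transgene and no account of how the Abcg2 model was made.

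Red cells form in the marrow from progenitors that lose stem cell genes, start haem and globin synthesis under the transcription factors Gata1 and Klf1, and divide several times before they lose their nucleus. Early erythroid progenitors depend on the receptors for stem cell factor (Kit) and erythropoietin (Epor). Car1 and Car2 encode cytosolic enzymes that interconvert carbon dioxide and bicarbonate, and in mice Car1 is used as a marker of committed erythroid progenitors. The sort named here removes blood cells by CD45, a protein of most white cells, by TER119, a surface antigen of later erythroid cells, and by CD31, found on endothelium.

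The libraries held between 36133716 and 46033790 UMIs and between 4973 and 5766 eligible barcodes. Members numbered 1 in NHD13Tg, or 0.0173% of its eligible barcodes (95% exact Clopper-Pearson interval 0.000439 to 0.0966%). WT_A1 had 4 members, or 0.0804% (0.0219 to 0.206%). Abcg2-MDS/AML had 1 member, or 0.0179% (0.000453 to 0.0997%). Control had 426 members, or 8.26% (7.52 to 9.04%). Intervals here and elsewhere cover counting error only. Thinning every eligible barcode to 2000 UMIs left 0, 3, 1 and 291 members in the same order. Of the 426 members of Control, 1 had a barcode that was also eligible in another library, and the other libraries' members had none.

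The plot of Car1 UMIs by library shows that the members were also the deepest barcodes of Control. Their median was 24822 UMIs (2011 to 65317) and 4156.5 genes, against 4763.5 UMIs and 1661 genes in the other eligible barcodes of Control. Of 327 Control barcodes with at least 20000 UMIs, 283 were members. The members took up 28.7% of all UMIs in eligible barcodes of that library. The share of mitochondrially encoded UMIs was alike, with medians of 2.02% in members and 2.08% in the other barcodes.

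Car1 also stood out in the free RNA of Control, the UMIs of barcodes with 1 to 100 UMIs. Its free level in CPM (UMIs per 1000000 UMIs of the set) was 0.938 in NHD13Tg, 3.27 in WT_A1, 6.72 in Abcg2-MDS/AML and 426 in Control. Among the other eligible barcodes, 16, 4, 0 and 191 had any Car1 UMI in those libraries. The members of Control had between 5.12 and 75.2 u of Car1, with a median of 18.3 u. Just inside the limit, 22 members had 5 to 7 u, and just outside it 15 barcodes had 3 to 5 u, the highest at 4.92 u. Summed over those barcodes, Car2 stood at 4535 CPM inside and 4726 CPM outside, Klf1 at 289 and 229 CPM, and Gata1 at 128 and 91.8 CPM. The barcodes left out by the limit therefore carried the other erythroid genes at levels near those of the members beside them.

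The other markers of the label, which the rule did not read, were looked at next. They were chosen with earlier results of these data known, so their levels describe the members and are no independent check of the name. In Control, UMIs of Car2 were found in 100% of members, of Klf1 in 95.3%, of Hba-a1 in 92.0% and of Hbb-bt in 89.9%. The shares in the other eligible barcodes, at their lower depth, were 6.51%, 1.44%, 9.21% and 9.19%. Summed over cells, Car2 stood at 4110 CPM in members, against 153 CPM in other barcodes and 790 CPM in free RNA. Klf1, the erythroid Krüppel-like factor that switches on adult β-globin, had 237 CPM in members, 9.42 CPM in other barcodes and 32.3 CPM in free RNA. The members of Control as a group thus carried the other erythroid markers of the label.

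The members of Control were compared with the other eligible barcodes of that library gene by gene. A rule on size, with no test behind it, called a gene higher or lower where its CPM differed at least 2-fold, its counting interval left out a ratio of 1, and it had at least 20 CPM in members or in other barcodes. Of 6518 genes considered, 2231 (34.2%) were called higher in members and 2104 (32.3%) lower, so a call alone says little, and the size of the ratio and the count within a list carry the description. Counts of calls in the lists below are to be read against those shares of all genes. The median log2 ratio was -0.12 over the 10360 genes with at least 5 CPM in members or in other barcodes. Median log2 ratios of lists below use the same minimum of 5 CPM, so they can cover more genes than were considered for calls. The 4 globin genes Hba-a1, Hba-a2, Hbb-bs and Hbb-bt are near-identical in pairs, so the split of UMIs within a pair is uncertain.

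Among genes with at least 100 CPM in members and free RNA below 0.2 of that level, Car1 and the granule genes of the rule left out, the 20 largest ratios to other barcodes were 19.4- to 32.8-fold. Tspo2, an erythroid relative of the mitochondrial translocator protein, led with 178 CPM in members against 5.40 CPM in other barcodes. Gatm, which makes the creatine precursor guanidinoacetate, followed with 130 against 3.95 CPM, and the mitochondrial carrier Slc25a21 with 119 against 3.84 CPM. Gata1, the master regulator of erythroid genes, had 102 CPM in members and 3.37 CPM in other barcodes, a log2 ratio of 4.91 (4.61 to 5.24). Next came the carboxylesterase Ces2g, the Rh-associated ammonium channel Rhag, the integrin activator Fermt3, Car2, the blood group antigen gene Ermap, and the claudin Cldn13. The list went on with Klf1, the phospholipid flippase Atp8a1, the aspartic protease Ctse, Nxpe2, the blood group gene Rhd, the mitochondrial Chchd10, the replication helicase subunit Mcm5, the linker histones Hist1h1a and Hist1h1b, and the tetraspanin Tspan33. Ctse had 529 CPM in members and 23.0 CPM in other barcodes, and Hist1h1b 1508 and 77.3 CPM. Free RNA carried all 20 at levels between those of the members and those of the other barcodes.

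Regulators of the erythroid programme were high as a group. Of 19 erythroid transcription factors, 17 could be considered, and 11 were called higher in members and 0 lower, with a median log2 ratio of 3.79. Lmo2, a bridging partner of Gata1 and Tal1, had 254 CPM in members and 15.2 CPM in other barcodes. Zfpm1 (Fog1), the cofactor of Gata1, had 189 and 10.7 CPM, and E2f4, a cell cycle factor needed for red cell formation, 187 and 17.2 CPM. Tal1 (59.1 and 2.61 CPM), the repressor Gfi1b (58.9 and 2.72 CPM) and Bcl11a, a repressor of embryonic and fetal globin genes (81.6 and 3.41 CPM) were all called higher. The 6 considered factors that were not called, Klf3, Klf13, Zbtb7a, Sox6, Ldb1 and Foxo3, were also present in the other barcodes at 28.8 to 122 CPM.

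In haem synthesis, 13 of 13 considered genes were called higher in members (median log2 ratio 3.19). Cpox, the coproporphyrinogen oxidase, had 498 CPM in members and 33.6 CPM in other barcodes, the haem-binding Hebp1 403 and 28.0 CPM, and Alad, which forms porphobilinogen, 369 and 24.8 CPM. Alas2, the erythroid enzyme of the first step, stood lower at 46.9 CPM in members, against 5.11 CPM in other barcodes, and was found in 40.1% of members. Its housekeeping relative Alas1 had 5.41 CPM in members and 17.6 CPM in other barcodes and fell under the minimum level.

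Against 34.2% of all genes called higher and 32.3% lower, 8 of 12 iron genes considered were called higher in members and 0 lower. The ferritin genes Fth1, at 8846 CPM in members and 8529 CPM in other barcodes, and Ftl1, at 3268 and 1973 CPM, were not among them. Glrx5, needed for iron-sulphur clusters, had 1007 CPM in members and 85.0 CPM in other barcodes, and Pcbp1, an iron chaperone, 464 and 194 CPM. Tfrc, the receptor that imports transferrin-bound iron, had 275 CPM in members and 64.9 CPM in other barcodes.

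Of 20 red cell membrane and blood group genes considered, 19 were called higher in members and 1 lower, with a median log2 ratio of 4.0. Cd47, the signal that protects cells from phagocytosis, had 566 CPM in members and 274 CPM in other barcodes. Rhd had 438 and 20.8 CPM, and Cldn13 425 and 16.6 CPM. The exception was Slc2a1, a glucose transporter, at 1.17 CPM in members and 52.4 CPM in other barcodes.

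Of 15 genes of late maturation considered, 8 were called higher in members and 3 lower, against 34.2% and 32.3% of all genes. The antioxidant enzymes Prdx2, at 2855 CPM in members and 356 CPM in other barcodes, and Gpx1, at 2037 and 710 CPM, were high, as was the mitochondrial carrier Ucp2, at 357 and 22.9 CPM. Fbxo30, Fam46c and Xpo7 were the lower ones.

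Globin genes were present but unevenly spread. All 4 adult genes were called higher in members, led by Hbb-bs with 5821 CPM in members, 637 CPM in other barcodes and 2010 CPM in free RNA. The embryonic genes Hbb-y and Hba-x had 7 and 19 UMIs in all members together, and Hbb-bh1 had 0. When every member weighed the same rather than by its depth, Hbb-bt stood at 4251 CPM in place of 2637 CPM, and Hba-a1 at 4695 CPM in place of 2841 CPM.

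Genes of the erythropoietin pathway went both ways. Epor was called higher, at 78.6 CPM in members and 3.12 CPM in other barcodes, and was found in 80.8% of members. Of 8 genes considered in that pathway, Epor and the phosphatase Ptpn6 were called higher and 3 lower. These counts lie near the shares over all genes, 34.2% higher and 32.3% lower, so they say little of the pathway as a set. The lower ones were the feedback inhibitors Socs3, with 222 UMIs in all members and 754 CPM in other barcodes, and Socs2, at 1.44 and 71.7 CPM, with the kinase Pim1, at 28.3 and 104 CPM. The transducers Jak2 (21.1 and 40.3 CPM) and Stat5a (18.9 and 19.6 CPM) were not called.

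Stem cell and early progenitor genes were sparse. Of 16 listed genes 4 could be considered, with 1 called higher and 3 lower. These 4 genes are too few to set against the 34.2% and 32.3% of all genes. Myb, a factor of immature blood cells, was called higher at 53.2 CPM in members and 1.12 CPM in other barcodes, and Kit stood under the minimum level at 16.7 CPM in members and 1.59 CPM in other barcodes. Runx1, Cd34 and Erg were called lower, with Cd34 at 0.811 CPM in members and 26.0 CPM in other barcodes. Flt3 and Spi1, genes of multipotent and myeloid progenitors, had 0 UMIs in 11090951 UMIs of the members. Gata2, which precedes Gata1 in the lineage, had 33 UMIs.

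Genes of the cell cycle were high throughout. All 24 S phase genes and all 24 genes of G2 and M phase were called higher in members, with median log2 ratios of 3.73 and 3.88. Dut, which clears dUTP, had 1122 CPM in members and 90.7 CPM in other barcodes, and Rrm2, a subunit of ribonucleotide reductase, 531 and 35.4 CPM. Hmgb2, a chromatin protein of dividing cells, had 3057 and 291 CPM, and Mki67, the proliferation marker Ki-67, 863 and 46 CPM with a UMI in 97.7% of members. Nucleolar and growth genes followed with 15 of 18 called higher and 1 lower. Npm1, the nucleolar chaperone nucleophosmin, had 3428 CPM in members and 817 CPM in other barcodes, and Ncl (nucleolin) 1936 and 427 CPM. Myc itself was the gene called lower, at 12.9 CPM in members and 138 CPM in other barcodes.

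**Figure D1:**
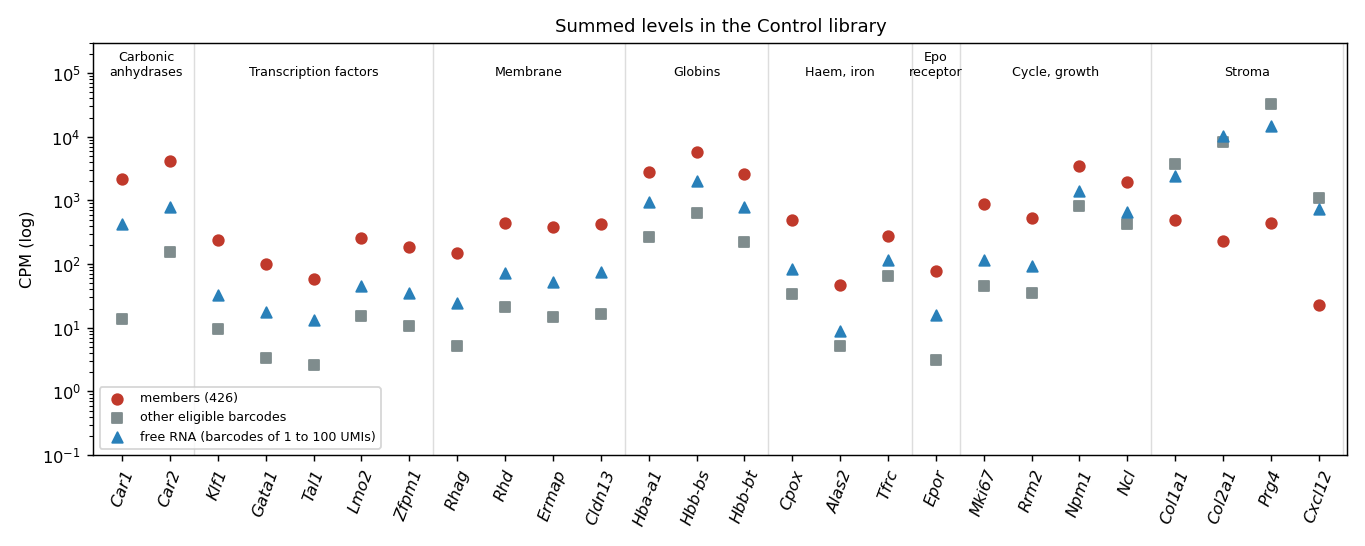
Summed level (CPM, logarithmic axis) of genes by role in the Control library, in members (red circles), other eligible barcodes (grey squares) and free RNA (blue triangles). For every erythroid, cycle and growth gene shown, members lie highest and free RNA lies between them and the other barcodes, while the 4 stromal genes are lowest in members.

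The plot of levels by role sets the erythroid genes beside stromal ones. Of 23 stromal genes considered, 0 were called higher in members and 23 lower, and the 24 listed summed to 3385 CPM in members, 112679 CPM in other barcodes and 84977 CPM in free RNA. The median member had 4.11 u of them and the median other barcode 834 u. This RNA was concentrated in a minority of members: 41 had at least 100 u of the stromal list, up to 1572 u. In those 41, Col1a1 reached 6311 CPM, against 17.5 CPM in the 385 members under 100 u. Car1 stood at 1672 CPM in the 41 and 2230 CPM in the 385, and Klf1 at 193 CPM in the 41. No doublet caller was run, and whether the 41 hold more than 1 cell was not tested. With them left out, 2262 genes were called higher and 2119 lower.

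The genes of the sort were read next, as transcripts and not as surface proteins. Ptprc, which encodes CD45, had 31 UMIs in members, or 2.80 CPM (1.90 to 3.97), against 2.43 CPM (1.88 to 3.08) in other barcodes, and was found in 27 of 426 members. In the 21 Control barcodes rich in granule genes, with at least 100 u of the 4 granule genes of the rule, Ptprc stood at 359 CPM (270 to 467). Pecam1, which encodes CD31, had 2 UMIs in all members. Transcripts of the proteins that the sort required were as scarce. Pdgfra (CD140a) had 3.34 CPM in members and 87.3 CPM in other barcodes, and Itgav (CD51) 1.35 CPM in members and 53.2 CPM in other barcodes. In members under 100 u of stromal RNA, Pdgfra came to 10 UMIs (0.976 CPM) and Itgav to 3 UMIs (0.293 CPM). RNA of the proteins that remove a cell and of those that admit it was thus scarce in members alike. No gene was read for TER119.

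**Figure D2:**
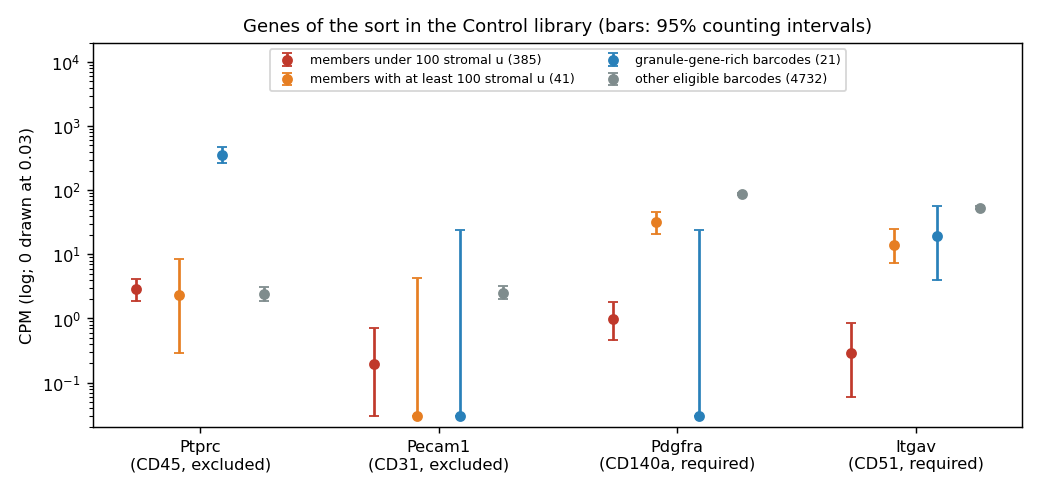
Summed level of the 4 genes of the sort (CPM, logarithmic axis, with 0 drawn at 0.03) in the Control library, for members under and over 100 u of stromal RNA, for barcodes rich in granule genes, and for all other eligible barcodes, which include the granule-rich ones; bars are 95% Poisson intervals. Pdgfra and Itgav are lower in the 385 members with little stromal RNA than in the 41 others and in the other eligible barcodes, the granule-rich barcodes had 0 UMIs of Pdgfra, and Ptprc is highest in the granule-rich barcodes.

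Among adhesion genes, Itga4, the α4 integrin by which erythroid cells bind the macrophages of erythroblastic islands, had 123 CPM in members and 6.38 CPM in other barcodes. Cd24a (heat-stable antigen) had 955 and 224 CPM, and Icam4, a red cell adhesion molecule, 58.6 and 2.72 CPM. These 3 were called higher, while 6 of the 12 considered were lower, against 34.2% and 32.3% of all genes. Among the lower ones was Cd9, with 66.2 CPM in members and 2680 CPM in other barcodes. Of 16 carbonic anhydrase genes only 6 reached 5 CPM in members or in other barcodes: besides Car1 and Car2, called higher, Car3, Car8 and Car5b were called lower.

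Markers of other blood cells were nearly empty in members. Of 18 granulocytic genes 10 had 0 UMIs, among them Elane, Mpo, Ltf and Ly6g, and the 18 summed to 8.02 CPM in members, 2102 CPM in other barcodes and 1251 CPM in free RNA. S100a8, S100a9, Ngp and Camp are among these and were limited by the rule, although the highest sum in a member was 4.97 u, far from 30 u. Of 16 macrophage genes 8 had 0 UMIs, including Adgre1, C1qa and Cd5l, and the list summed to 9.02 CPM in members and 332 CPM in other barcodes. Megakaryocyte genes summed to 14.3 CPM in members and 5.47 CPM in other barcodes, with Gp5, Gp9 and Vwf at 50, 48 and 44 UMIs. Genes of mast cells and basophils summed to 3.43 CPM in members and 7.46 CPM in other barcodes, with 8 of 12 at 0. Genes of B, T and NK cells summed to 4.51 and 123 CPM, with 8 of the 13 in the files at 0 in members. The endothelial list summed to 35.2 CPM in members and 17.4 CPM in other barcodes with 7 of 12 genes at 0 in members, and the osteoclast list to 85.0 and 292 CPM with 6 of 10 at 0. In both, 1 gene made up most of the sum in members. Of the endothelial list Egfl7, an extracellular matrix gene, was called higher at 30.7 CPM in members and 1.30 CPM in other barcodes, while Cdh5 had 0 UMIs. Of the osteoclast list Acp5, the tartrate-resistant acid phosphatase, was called higher at 76.5 CPM in members and 12.6 CPM in other barcodes, while Ctsk had 4.87 CPM in members and 130 CPM in other barcodes.

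The members of Control differed most among themselves in globin. The sum of all globin genes ran over a median of 47.4 u, with 5% of members under 0.460 u and 5% over 999 u, and a maximum of 3883 u. No globin UMI was seen in 15 members, whose median depth was 11011 UMIs. Members were therefore described in 3 ranges of globin, with 260 under 100 u, 144 from 100 to 1000 u and 22 over 1000 u. These are ranges of a continuous value and not cell types: 42 members lay within 80 to 125 u and 14 within 800 to 1250 u. Depth moved with globin, with median UMIs of 32221, 20719.5 and 9547.5 from the lowest to the highest range, and its part in the differences was not tested. Members with at least 100 u of stromal RNA numbered 33, 8 and 0 in those ranges. Between the highest and the lowest range 584 genes (11.4% of 5129) were called higher and 1397 (27.2%) lower. The median log2 ratio was -0.54 over genes with at least 5 CPM in either range. When CPM were taken over UMIs that are not globin, the calls were 783 higher and 1089 lower.

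Genes of the mature red cell followed globin upward. From the lowest to the highest range Slc4a1, the band 3 anion exchanger, stood at 10.8, 294 and 861 CPM, and Alas2 at 6.49, 107 and 647 CPM. Slc25a37, the mitochondrial iron importer mitoferrin, stood at 38.7, 255 and 748 CPM, and Tfrc at 212, 415 and 621 CPM. Called higher in the highest range were 15 of 20 membrane genes, 11 of 13 haem genes and 12 of 15 genes of late maturation, and of these lists 2 late genes, Pklr (red cell pyruvate kinase) and Cat (catalase), were called lower. Of 13 iron genes 3 were called higher. Each of these counts was a larger share of its list than the 11.4% called higher over all genes.

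Growth and early genes ran the other way. Of 17 nucleolar and growth genes 15 were called lower in the highest range and 0 higher, against 27.2% of all genes lower. From the lowest to the highest range Npm1 stood at 4258, 1491 and 376 CPM, Ncl at 2351, 964 and 455 CPM, and Hspd1, the mitochondrial chaperonin, at 1131, 397 and 43.7 CPM. Srm, which makes spermidine, stood at 233, 37.6 and 0 CPM. Myb stood at 71.9, 8.32 and 0 CPM and Kit at 23.2, 0.998 and 0 CPM, and Bcl11a at 94.2, 52.9 and 26.2 CPM. Egfl7 stood at 38.9, 11.3 and 0 CPM, while Acp5 went up with 22.9, 201 and 284 CPM.

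Regulators split. Of 18 transcription factors 10 were called higher in the highest range and 1, Bcl11a, lower. E2f2, a cell cycle factor, stood at 32.1, 164 and 315 CPM and Nfe2, a factor of globin locus activity, at 9.67, 41.9 and 127 CPM, with Klf1 at 202, 300 and 586 CPM. Gata1 was not called, at 91.8, 130 and 65.6 CPM, and neither was Epor, at 79.8, 74.2 and 96.2 CPM. Of the cycle genes 10 of 24 in S phase and 16 of 24 in G2 and M phase were called higher and none lower. Mki67 stood at 696, 1259 and 1408 CPM. Of 6 genes considered in the Epo pathway, Pim1 was called higher in the highest range, and Ptpn6 and Stat5a lower. Over all genes 11.4% were called higher and 27.2% lower.

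Car1 varied far less than globin. It stood at 2361, 1769 and 1727 CPM from the lowest to the highest range, a log2 ratio of -0.45 (-0.60 to -0.31) that was not called, and Car2 at 3698, 5002 and 6555 CPM. Since Car1 chose the members, cells in which it had gone below 5 u are not in these values.

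**Figure D3:**
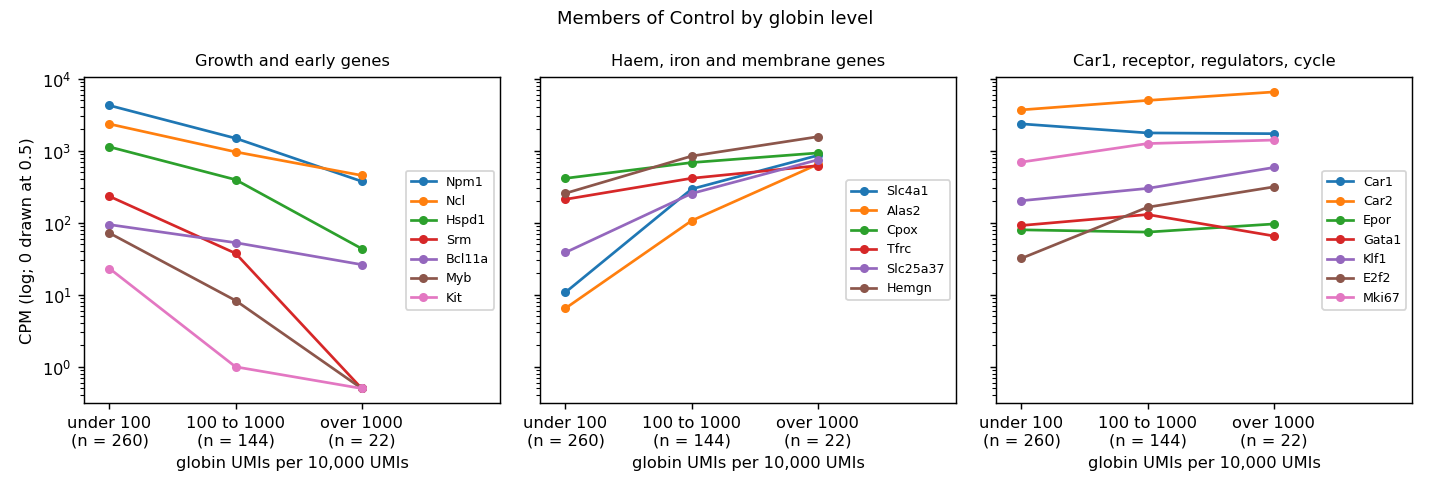
Summed level (CPM, logarithmic axis, with 0 drawn at 0.5) of single genes in the 426 members of Control, split into 3 ranges of globin. Nucleolar and early genes go down to the right, haem, iron and membrane genes go up, and Car1, Epor and Gata1, none of them past the rule on size, differ less.

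Splitting the members into quartiles of globin gave a finer order. The quartiles held 107, 106, 106 and 107 members with median globin of 2.05, 19.6, 104 and 449 u. From the lowest to the highest quartile Kit stood at 38.6, 14.8, 1.80 and 0 CPM, Myb at 116, 46, 11.9 and 5.65 CPM, and Npm1 at 5272, 3833, 2217 and 979 CPM. Slc4a1 stood at 0.571, 4.27, 97.6 and 497 CPM and Slc25a37 at 17.1, 42.7, 118 and 408 CPM. Kit and Slc4a1 crossed between the second and the third quartile. Epor stood at 79.4, 76.5, 78.9 and 80.3 CPM in the 4 quartiles.

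Across the 426 members, ranks of single genes followed the same line. Of 1439 genes with at least 100 CPM, outside the globins, those with the highest Spearman correlation with globin u were Mgst3, a microsomal glutathione transferase (0.92), the peroxidase Prdx2 (0.90), Fth1 (0.89) and the erythroid nuclear protein Hemgn (0.88). Npm1 had the lowest, at -0.91, followed by the RNA-binding Ybx1 (-0.82) and the chaperonin subunit Hspe1 (-0.82). Globin u itself had -0.50 with total UMIs. Car1 u was weakly related to either, with -0.25 to globin u and 0.18 to total UMIs. The 8 genes most like Car1 across these cells were Atp5g2, Park7, Ppia, Rpl14, Ybx1, Eif5a, Llph and Nop10, with correlations of 0.26 to 0.30, which in sparse counts of shared depth is no finding.

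**Figure D4:**
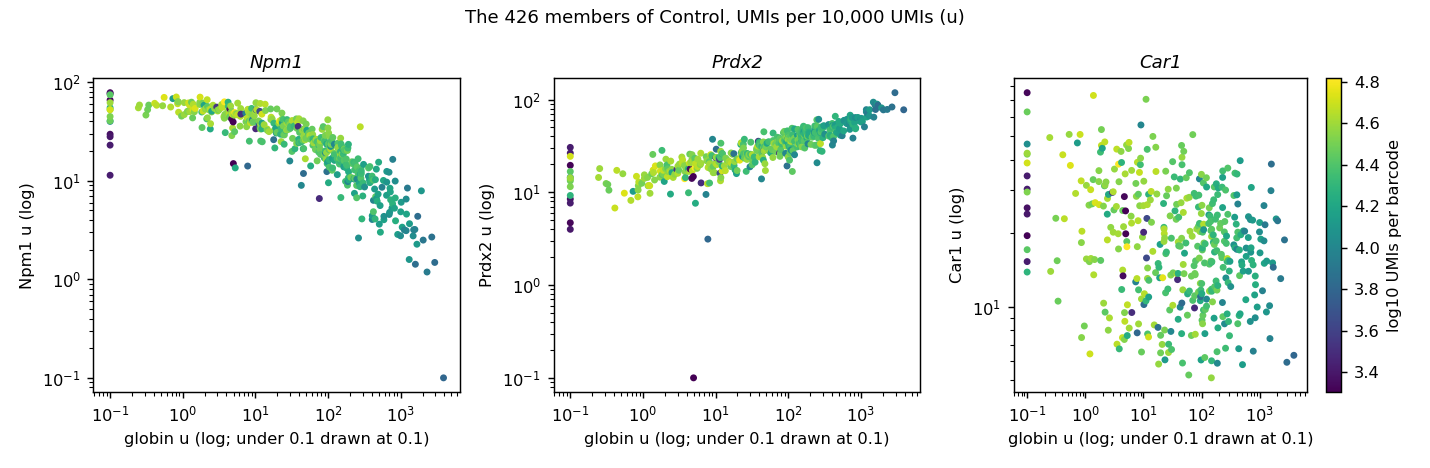
Npm1, Prdx2 and Car1 (u, logarithmic axes) against globin (u) in the 426 members of Control, each point 1 barcode coloured by its depth. Npm1 goes down and Prdx2 goes up over the whole range of globin, while Car1 spreads between 5.12 and 75.2 u, and barcodes rich in globin are shallower.

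Promoter windows of 4 erythroid genes of the members are shown, 3 that hold AGATAA or CCACACCC and 1, that of Klf1, that holds neither string. The windows run from 250 bases before to 50 bases after the start of transcription and come from RefSeq on GRCm38.p6. Capitals mark AGATAA, a spelling of the motif of Gata1 and its relatives, or CCACACCC, a spelling of the motif of Klf1, called the CACCC motif. Both were searched on either strand, with no overlap of the motifs in these windows. Other spellings that these factors may bind were not searched. Hbb-bs lies on the minus strand of chr7:103827879-103828178, Rhd on the plus strand of chr4:134864286-134864585, Alas2 on the plus strand of chrX:150547167-150547466, and Klf1 on the plus strand of chr8:84901732-84902031.
Hbb-bs: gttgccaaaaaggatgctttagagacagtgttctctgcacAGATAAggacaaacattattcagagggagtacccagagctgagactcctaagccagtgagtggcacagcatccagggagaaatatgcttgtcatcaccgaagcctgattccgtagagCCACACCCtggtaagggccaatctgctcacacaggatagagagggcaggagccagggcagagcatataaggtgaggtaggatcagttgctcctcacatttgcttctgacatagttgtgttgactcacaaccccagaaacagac
Rhd: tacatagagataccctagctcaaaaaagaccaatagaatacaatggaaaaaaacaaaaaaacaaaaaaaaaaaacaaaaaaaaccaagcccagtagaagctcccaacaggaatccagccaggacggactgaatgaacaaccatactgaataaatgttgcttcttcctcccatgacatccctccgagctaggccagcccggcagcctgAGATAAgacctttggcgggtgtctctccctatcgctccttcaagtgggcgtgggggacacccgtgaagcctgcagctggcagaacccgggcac
Alas2: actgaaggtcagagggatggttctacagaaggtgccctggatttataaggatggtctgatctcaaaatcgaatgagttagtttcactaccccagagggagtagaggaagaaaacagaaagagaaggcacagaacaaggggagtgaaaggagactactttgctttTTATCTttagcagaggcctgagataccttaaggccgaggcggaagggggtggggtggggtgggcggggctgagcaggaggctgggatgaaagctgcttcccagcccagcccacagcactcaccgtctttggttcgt
Klf1: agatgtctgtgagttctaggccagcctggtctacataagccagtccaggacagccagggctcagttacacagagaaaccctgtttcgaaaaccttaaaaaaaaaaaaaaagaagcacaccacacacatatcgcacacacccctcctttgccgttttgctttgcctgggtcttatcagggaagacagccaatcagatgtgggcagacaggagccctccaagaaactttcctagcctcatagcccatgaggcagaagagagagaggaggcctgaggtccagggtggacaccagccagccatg

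In the Hbb-bs window the GATA motif began at base -210 and the CACCC motif at base -93 from the start of transcription. In Rhd the GATA motif began at -43, and in Alas2 it lay on the other strand at -86, while the Klf1 window held neither of the strings searched. Between the highest and the lowest globin range Alas2, which had no part in the split, was 99.1-fold higher, while the level of Hbb-bs is part of the globin sum that set the ranges. Of 32851 windows of that length in the table, 11.2% held AGATAA and 3.56% held CCACACCC. Of the 20 leading genes, 15 were matched to 16 windows, of which 2 (12.5%) held the GATA motif and 1 (6.25%) the CACCC motif. A match describes letters and is no evidence of binding, and a window without one says nothing of the factor.

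The 6 members outside Control were single cells or few, and are given 1 by 1. The NHD13Tg member had 30463 UMIs, 32 of Car1, 172 of Car2, 5 of Klf1 and 6 of Gata1, with 227 u of globin, higher than in 77.5% of Control members. The 4 members of WT_A1 had 8620, 7780, 25356 and 2089 UMIs. Their globin stood at 1377, 1537, 174 and 1565 u, so that 3 of 4 lay in the range that held 22 of 426 members in Control. None of these 5 cells had a UMI of Kit, Myb or Pdgfra. In the highest globin quartile of Control, Kit stood at 0 CPM, and Myb and Pdgfra at 5.65 CPM each. At the depth of these 5 cells, the absence of these genes therefore says little.

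The Abcg2-MDS/AML member met the label in part. It had 32029 UMIs, 105 of Car1 and 82 of Car2, but 0 globin UMIs, 1 of Klf1, 1 of Gata1 and 0 of Epor. It carried 2 UMIs of Kit, 1 of Myb, 146 of Npm1 and 5 of Pdgfra, and 80.6 u of stromal RNA. In Control, 15 members also had no globin UMI. The haem list came to 38 UMIs and the membrane list to 48 UMIs in that cell. Among genes chosen after their values were seen, Alad had 7 UMIs (219 CPM against 5.69 CPM in the other eligible barcodes of that library), Zfpm1 5 UMIs (156 against 2.86 CPM) and Bcl11a 4 UMIs (125 against 0.553 CPM).

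Between the libraries of the NHD13 pair, Car1 stood at 1050 CPM (719 to 1483) in the NHD13Tg member and 2281 CPM (1856 to 2774) in the WT_A1 members, and Car2 at 5646 and 6774 CPM. Of 5759 genes considered, 121 (2.1%) were called higher and 80 (1.39%) lower in NHD13Tg. The largest ratios upward were those of Fabp5, a fatty acid binding protein, with 49 UMIs in NHD13Tg and 0 in WT_A1, Tomm5 (21 and 0), Ppp1r14b (14 and 0), Glrx3 (10 and 0), Xrn2 (8 and 0), and Trmt6, Mrps15 and Ccng1 (7 and 0 each). Downward they were Hebp1 with 0 UMIs in NHD13Tg and 29 in WT_A1, the histone variant H2afx (0 and 21), Anapc13 and Hist1h4h (0 and 12 each), and Cnih4, Bex4, Rhoh and Ifi27 (0 and 11 each). Npm1 stood at 2298 CPM in NHD13Tg and 388 CPM in WT_A1, and Slc4a1 at 230 CPM in NHD13Tg and 730 CPM in WT_A1. Globin differed between these cells too, at 227 u in NHD13Tg against 174 to 1565 u in WT_A1, and a difference between groups cannot be told apart from one between single cells.

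In the Abcg2 pair, Car1 stood at 3278 CPM (2681 to 3969) in the Abcg2-MDS/AML member and 2187 CPM (2160 to 2215) in the Control members, and Car2 at 2560 and 4110 CPM. Of 6227 genes considered, 459 (7.37%) were called higher and 111 (1.78%) lower in Abcg2-MDS/AML. Upward the largest ratios were those of Serpina3n, Fkbp11, Fbln2, Angptl7, Pdgfra, Sox4, Ccdc68 and Arhgdib, at 4 to 19 UMIs in the 1 cell. Pdgfra came to 156 CPM in that cell and 3.34 CPM in the Control members. Downward they were Hbb-bs, Hba-a1, Hbb-bt and Hba-a2, the mitotic ligase Ube2c, Col1a1, Rhd and Hist1h2ae, each with 0 UMIs in Abcg2-MDS/AML. Of the 5542 Col1a1 UMIs in Control members, 5363 came from the 41 with at least 100 u of stromal RNA. Col1a1 stood at 17.5 CPM in the other 385. Npm1 stood at 4558 CPM in Abcg2-MDS/AML and 3428 CPM in Control, and Mki67 at 531 CPM in Abcg2-MDS/AML and 863 CPM in Control.

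Barcodes with at least 500 u of globin that were not members numbered 1 in NHD13Tg, 7 in WT_A1, 0 in Abcg2-MDS/AML and 14 in Control. Granule-rich barcodes, another set with blood cell genes, numbered 20, 10, 1 and 21 in the same order. Members numbered 1, 4, 1 and 426.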

How the data were processed

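Single-cell RNA of sorted marrow stroma was sequenced in 4 libraries. The submitters' processing notes name Cell Ranger 3.1.0 and Seurat 3.2.3. The authors deposited raw matrices of UMI counts for every barcode, empty ones included, without normalization. Which genome build lies behind the counts is not given in the sources used here.

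From the counts, eligible barcodes and members were chosen as stated in the opening, UMIs were summed per library and set, and CPM were computed over the set's UMIs. Ratios had 0.5 added to each count, with exact conditional binomial intervals at the 95% level. Levels carry exact Poisson intervals. The summed members held 30463, 43845, 32029 and 11090951 UMIs in NHD13Tg, WT_A1, Abcg2-MDS/AML and Control, which sets their precision. List counts used the same size rule. On simulated Poisson counts for members and other barcodes of Control, it called 106 of 106 genes changed 4-fold and 93 of 94 changed by a ratio of 0.25. It called 0 of 5284 unchanged genes. The simulation held no variation between cells and did not cover the library pairs, so it cannot show how the rule fares there.

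Genes were named by rule: the markers, the genes of the sort, up to 4 genes of highest level in each list and those whose role makes them its point, the 20 leading genes, the 8 largest ratios in each direction of each pair and the 8 genes most like Car1. Rankings left out the genes of the rule (Car1, S100a8, S100a9, Ngp and Camp), mitochondrial genes, the X-inactivation and Y-linked transcripts, unnamed gene models and immunoglobulin segments. Quartiles of globin, and the split at 100 u of stromal RNA, were added after the values had been seen, as was the naming of Egfl7, Acp5, Slc2a1, Bcl11a and the other single genes outside that rule. The members and lists were chosen with earlier results of these data known. No doublet caller was run. Python 3.11.15, numpy 2.4.6, scipy 1.17.1 and pandas 2.3.3 were used.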

Additional observations from a re-analysis of the deposited data

How the results depend on the processing

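No paired analysis was possible because each group had 1 library. Requiring 2 rather than 3 Car1 UMIs gave 2 members in NHD13Tg, and thinning to 2000 UMIs gave 0. Control kept between 291 and 466 members under the 10 settings of the rule tried. In the Control members, weighing every cell the same gave 2081 CPM for Car1, 4311 for Car2, 4251 for Hbb-bt, 4695 for Hba-a1 and 262 for Klf1. Subtracting free RNA gave 2261 CPM for Car1, 4248 for Car2, 2714 for Hbb-bt and 2919 for Hba-a1. Leaving out members with at least 100 u of stromal RNA, a choice made after the data had been seen, gave 2230 CPM for Car1, 4164 for Car2, 2712 for Hbb-bt and 2937 for Hba-a1. Over UMIs that are not globin, Car2 stood at 4160 CPM. Within Control, a minimum of 50 CPM left 1473 genes higher and 1117 lower, and no minimum gave 6332 lower. Limits of 50 and 500 globin u put 47 members in the highest range. Of 900 values of named genes, 890 kept their direction and side of the size rule, 9 passed it anew, 1 (Lmo2 by quartiles of globin, log2 0.91) no longer passed, and 0 turned. The cause of these differences was not tested. Depth limits the 6 members outside Control most: a gene with 0 UMIs in the Abcg2-MDS/AML member may stand at up to 115 CPM there.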

Other observations

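The stromal RNA in members was not of 1 make. The ratio of the bone genes Col1a1, Col1a2 and Bglap to the joint and cartilage genes Prg4, Mgp and Col2a1 was 1.28 in UMIs of the 41 members with at least 100 u of stromal RNA. It was 0.128 in the 385 other members, 0.150 in the other eligible barcodes of Control and 0.128 in its free RNA. In 5 of the 41, the bone genes gave over 50% of the stromal UMIs. The median of those 41 was 286 u of stromal RNA, 17.9 u of globin and 14.9 u of Car1. The summed stromal level of all members came to 3.98% of that in free RNA.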
